A study of Danio rerio with 6 samples.

Results

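The genes described here are the cytokine signalling feedback genes of the zebrafish (Danio rerio) larval liver: cish, socs2, socs3a and socs3b, which encode SH2-domain suppressors of cytokine receptors, the kinase gene pim1, the receptor gene crfb2 and the transcription factor gene stat3. They were chosen by name, and 7 of the 8 names matched a symbol among the 21589 genes of the deposited table. The name socs1a matched none. The table's socs1 is given beside the 7 genes, because RefSeq's gene table (assembly GRCz12tu) lists socs1 as an older name of socs1a, and it is not counted among them. The 7 genes all passed the filter on low counts, which kept 19573 genes. They were proposed with results of the same contrast in view, so their differences between the groups are a description and support nothing.

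The study set livers of larvae carrying a foxn3 transgene against those of wild-type siblings, 3 libraries a group, all from larvae aged 7 days post fertilization. foxn3 encodes a forkhead transcription factor, and glucose use by the liver is the theme of the series. The labels give neither the transgene's promoter nor the foxn3 sequence it carries, and do not say whether livers were pooled or whether each library stands for a clutch of its own. Each p-value therefore measures only the spread between these libraries, which may be technical.

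In this pathway a cytokine or hormone, such as growth hormone, interleukin-6 or an interferon, brings together receptor chains that carry Janus kinases (JAKs). The kinases activate STAT transcription factors, and the STATs in turn switch on CISH, SOCS and PIM1 genes in mammals. CISH and SOCS proteins bind the activated receptor, block the kinases or mark the complex for degradation, so that the signal is limited by its own product. In mammalian liver CISH and SOCS2 are known for the answer to growth hormone through STAT5, and SOCS3 for the answer to interleukin-6 through STAT3.

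Total counts were 10891720 to 12550954 in transgenic and 7732478 to 12214349 in wild-type libraries. foxn3 itself held 1983, 2206 and 2540 counts in transgenic libraries 1 to 3, against 304, 246 and 322 in wild-type libraries 1 to 3. The liver origin was plain in every library. The 10 hepatocyte markers in the table made up 9.08 to 9.71% of counts in transgenic and 8.65 to 9.72% in wild-type libraries. fabp10a and apoa2 stand on the authors' list of genes flagged for high counts, with a limit of 50000. What that limit counts is not known here, since tfa, at 327807 to 541333 counts a library, stayed in the table. Wild-type library 2 stood apart in intestine and muscle markers, and transgenic library 2 held the largest share of pancreas markers. All 7 intestine and all 12 skeletal muscle markers tested were highest in wild-type library 2, as were 17.2% of all genes tested. Intestine markers took 0.0598, 0.0481 and 0.0532% of the counts in transgenic libraries 1 to 3, against 0.0449, 0.147 and 0.0434% in wild-type libraries 1 to 3. Muscle markers took 0.122, 0.0698 and 0.0962% in the transgenic libraries, against 0.0718, 0.191 and 0.0648% in the wild-type libraries. The 16 exocrine pancreas markers took 0.52, 1.2 and 0.84% of counts in transgenic and 0.339, 0.767 and 0.386% in wild-type libraries, and all 16 stood higher in transgenic livers, at a median log2 fold change of 0.91 and with 5 at an unadjusted p under 0.05 in edgeR. Of 9 islet markers 7 stood higher, at a median of 1.43 and again with 5 at an unadjusted p under 0.05, and they took 0.00235, 0.00991 and 0.00779% of counts in transgenic and 0.00206, 0.00367 and 0.00454% in wild-type libraries. Over all genes tested, 0.869% stood higher at an unadjusted p under 0.05 in edgeR. No marker of these 4 tissues was at 0 in any library. Fold changes of the 7 genes and socs1 that rest on wild-type library 2 are given below with and without it.

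The genes fell into 3 patterns. For cish, pim1, crfb2 and socs3b every transgenic library stood below every wild-type library. socs3a and socs1 were far higher in wild-type library 2 than in any other library, and their groups overlapped. socs2 and stat3 also had overlapping groups, with log2 fold changes of -0.13 and -0.05. Values below are CPM (counts relative to the scaled library total, a measure that corrects for depth but not for gene length) unless FPKM is named, and log2 fold changes are transgenic over wild type, from edgeR's quasi-likelihood fit over all genes.

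cish (ENSDARG00000060316, chromosome 6, 41434717 to 41437613, plus strand, Zv9) encodes the cytokine-inducible SH2 protein. It had 42.6, 44.8 and 35.8 CPM in transgenic libraries 1 to 3, against 56.8, 116 and 72.5 CPM in wild-type libraries 1 to 3. The groups did not overlap: the highest transgenic library lay below the lowest wild-type library, and wild-type library 2 was far above all the others. The mean was 41.1 ± 4.68 CPM in transgenic and 81.7 ± 30.5 CPM in wild-type livers (SD, n = 3 each). This gave a log2 fold change of -0.99 with a 95% interval of -1.58 to -0.40. Without wild-type library 2 the log2 fold change was -0.65, with an interval of -1.13 to -0.17. Wild-type library 2 stood 1.79-fold above the mean of wild-type libraries 1 and 3, and that mean in turn stood 1.57-fold above the transgenic mean. The spread also differed: the highest library was 1.25-fold above the lowest among transgenic and 2.04-fold among wild-type libraries, beside medians over all genes tested of 1.46 and 1.5.

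pim1 (ENSDARG00000059120, chromosome 8, 10910935 to 10914660, minus strand) encodes a serine/threonine kinase that promotes cell survival and growth in mammals. It had 71.9, 63.7 and 65.5 CPM in transgenic libraries 1 to 3, against 99.1, 126 and 112 CPM in wild-type libraries 1 to 3. Both groups were tight and well apart, and no single library made the difference. In log2 terms the fold change was -0.74 (95% interval -1.14 to -0.34), and it lay between -0.82 and -0.65 when libraries were left out one at a time.

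crfb2 (ENSDARG00000040332, chromosome 9, 19691601 to 19710368, minus strand) encodes a class II cytokine receptor chain that in zebrafish takes part, with crfb5, in receptors for one group of type I interferons. It had 9.54, 7.81 and 9.25 CPM in transgenic libraries 1 to 3, against 14.9, 17.6 and 13 CPM in wild-type libraries 1 to 3. Again the groups did not overlap and each was tight. The log2 fold change was -0.78 (95% interval -1.23 to -0.32), with -0.87 to -0.65 when single libraries were left out. crfb1, the chain for the other interferon group, is the adjoining gene, 2707 bp away on the opposite strand with no gene of the table between them. It had 7.68, 9.03 and 10 CPM in transgenic and 7.59, 8 and 11 CPM in wild-type libraries, a log2 fold change of 0.02 (95% interval -0.49 to 0.53). The shared chain crfb5 had 9.71, 8.65 and 9.08 CPM in transgenic and 6.97, 8.54 and 6.42 CPM in wild-type libraries, a log2 fold change of 0.32 (95% interval -0.15 to 0.78). The groups of crfb5 did not overlap, by a narrow gap with transgenic libraries above, which held for 3.31% of all genes tested. The sign of crfb1 was not stable, with -0.08 to 0.20 when single libraries were left out. Whether the difference of crfb2 from crfb1 and crfb5 exceeds the error was not tested.

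socs3b (ENSDARG00000026611, chromosome 12, 37046023 to 37050142, minus strand) is one of a pair of zebrafish counterparts of mammalian SOCS3, which silences receptors that signal through gp130. It had 19.8, 22.6 and 23.3 CPM in transgenic libraries 1 to 3, against 26.9, 51.8 and 32.0 CPM in wild-type libraries 1 to 3. The groups were separate by a small gap, and as for cish the top value was that of wild-type library 2, 1.76-fold above the mean of the other two. For socs3b the log2 fold change was -0.75 (95% interval -1.31 to -0.20). It moved to -0.42, with an interval of -0.86 to 0.02 that takes in 0, when wild-type library 2 was left out.

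socs3a (ENSDARG00000025428, chromosome 3, 58237024 to 58239849, minus strand), the other SOCS3 counterpart, had 10.7, 10.3 and 5.53 CPM in transgenic libraries 1 to 3, against 8.75, 45.2 and 5.89 CPM in wild-type libraries 1 to 3. Only wild-type library 2 was high, with 588 counts (exact 95% Poisson interval 541 to 638, counting error only). The other 5 libraries held 127, 110 and 64 counts in the transgenic and 98 and 44 counts in the wild-type group. The log2 fold change was -1.19 with an interval of -2.66 to 0.28, and it turned to 0.27 (-0.49 to 1.02) without wild-type library 2. The difference in group means of socs3a, 8.87 ± 2.89 against 20 ± 21.9 CPM (SD, n = 3 each), thus rested on 1 library.

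socs1 (ENSDARG00000038095, chromosome 3, 26202889 to 26204785, minus strand), a counterpart of the SOCS1 gene that limits interferon signalling in mammals, was also highest in wild-type library 2. Its values were 3.63, 5.27 and 4.32 CPM in transgenic libraries 1 to 3, against 3.75, 21.2 and 8.43 CPM in wild-type libraries 1 to 3. Wild-type library 2 held 275 counts and wild-type libraries 1 and 3 held 42 and 63, beside 43 to 56 counts in the transgenic libraries. Unlike for socs3a, wild-type library 3 also stood above every transgenic library in CPM, while wild-type library 1 lay among them. With all libraries the log2 fold change was -1.35, beside -0.44 (95% interval -1.27 to 0.39) without wild-type library 2.

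socs2 (ENSDARG00000045557, chromosome 4, 17501036 to 17503108, minus strand) encodes the suppressor that restrains growth hormone signalling in mammals. It had 2.36, 5.08 and 4.76 CPM in transgenic libraries 1 to 3, against 4.82, 5 and 3.35 CPM in wild-type libraries 1 to 3. The low value in each group, transgenic library 1 and wild-type library 3, rested on 28 and 25 counts. The log2 fold change was -0.13 with an interval of -0.87 to 0.62. In these libraries a difference as large as the -0.74 of pim1 could not be told from none. The sign turned to 0.15 without transgenic library 1.

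stat3 (ENSDARG00000022712, chromosome 3, 16650645 to 16727426, plus strand), the transcription factor that carries interleukin-6 signals in mammals, had 30.9, 34.7 and 31.6 CPM in transgenic libraries 1 to 3, against 38.6, 29.0 and 33.2 CPM in wild-type libraries 1 to 3. The groups overlapped throughout. The log2 fold change was -0.05 (95% interval -0.44 to 0.34), and whether it differs from those of cish, pim1, crfb2 and socs3b was not tested. Wild-type library 2, the highest for 5 of the 7 genes, was the lowest of all for stat3.

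**Figure D1:**
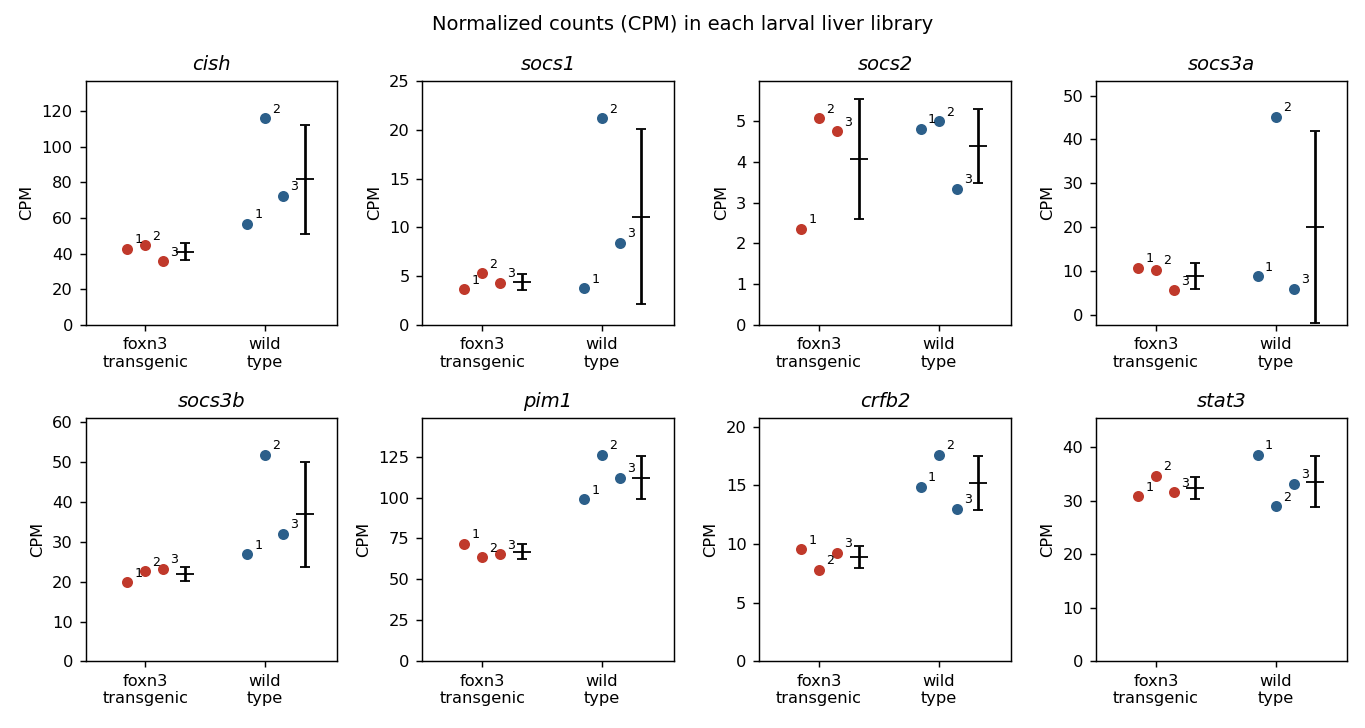
Normalized counts (CPM) of 8 genes, the 7 found by name and socs1, in each library, with the library number beside each point. Red points are foxn3-transgenic and blue points wild-type libraries, and black bars give the mean ± SD of 3 libraries. For pim1 and crfb2 all wild-type points lie above all transgenic points, while for socs3a and socs1 wild-type library 2 is the highest point by far, at 45.2 and 21.2 CPM.

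In the fit over all genes edgeR called 0 genes lower and 0 higher at a Benjamini-Hochberg adjusted p of 0.05, or 0% of the genes in each direction, and each of the 7 genes had an adjusted p of 1. DESeq2 called 1 gene, foxn3, and limma-voom called 0. In edgeR foxn3, the gene of the transgene itself, had a log2 fold change of 2.74 and an adjusted p of 0.11. Its adjusted p was 0.054 in limma-voom and 1.1e-14 in DESeq2. As the edgeR fit did not call even foxn3, the absence of a call does not show that a gene was unchanged. Groups did not overlap, with transgenic libraries below, for 4 of the 7 genes and for 3.15% of all genes tested. cish, pim1, crfb2 and socs3b had lower levels at an unadjusted p under 0.05 in edgeR, as did 1.38% of all genes. Since the genes were picked with this contrast known, nothing is read from these shares. In the authors' deposited table, from DESeq2, cish and pim1 have an adjusted p of 0.57 each and the other 5 genes of 1. That table gives log2 ratios of -0.78 for cish, -0.65 for pim1, -0.63 for crfb2, -0.60 for socs3b and -0.32 for socs3a. In these whole livers fewer cells of a type and less RNA per cell cannot be told apart.

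**Figure D2:**
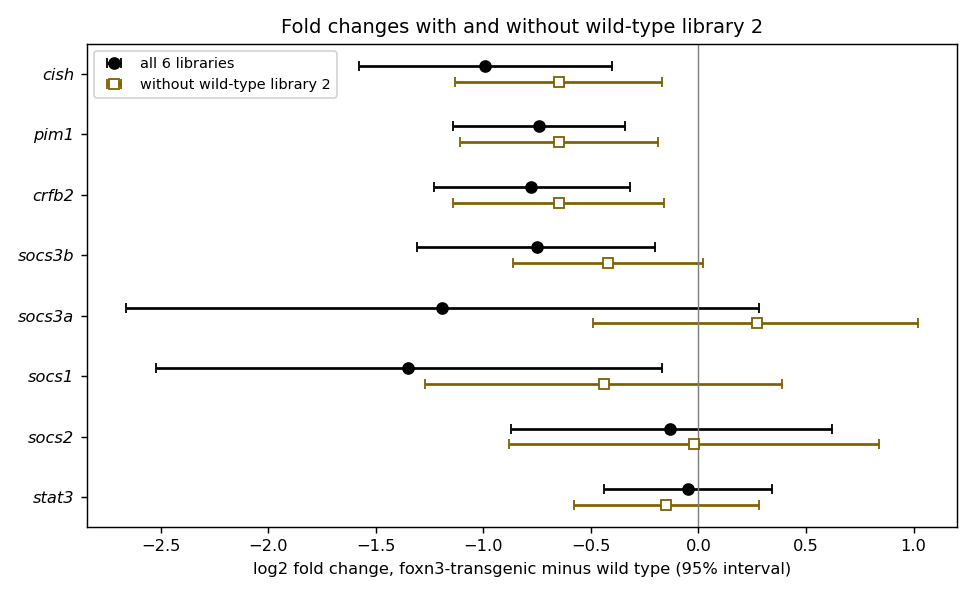
Log2 fold change, foxn3-transgenic minus wild type, of the 7 genes and socs1 with 95% intervals from edgeR, with all 6 libraries (filled circles) and without wild-type library 2 (open squares). pim1 and crfb2 hardly move, at -0.74 and -0.65 and at -0.78 and -0.65, while socs3a crosses 0, at -1.19 and 0.27.

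Wild-type library 2 was the highest of the 6 libraries for 5 of the 7 genes (cish, pim1, crfb2, socs3b and socs3a) and for 17.2% of all genes tested. It stood at least 2-fold above the mean of wild-type libraries 1 and 3 for 1 of the 7, socs3a at 6.18-fold, and for 6.19% of all genes. For socs1 the ratio was 3.47-fold. As the 7 genes were picked with this contrast known, nothing is read from these shares either. Intestine and muscle markers were also highest in wild-type library 2. Among the intestine markers it stood above the mean of wild-type libraries 1 and 3 by 2.08-fold for fabp2, the most abundant by FPKM, up to 47.3-fold for fabp6, a bile acid binding protein gene singled out after its values were seen. fabp6 had 0.338, 1.22 and 0.519 CPM in transgenic and 2.86, 150 and 3.48 CPM in wild-type libraries. All 7 intestine markers and 11 of the 12 muscle markers were at least 2-fold higher in wild-type library 2 than in the mean of wild-type libraries 1 and 3. So were 7 of the 16 exocrine pancreas and 4 of the 9 islet markers, though no pancreas marker was highest in wild-type library 2. Leukocyte markers, from 19 genes, made up 0.00889, 0.00589 and 0.00814% of counts in transgenic and 0.00797, 0.00964 and 0.00572% in wild-type libraries. Wild-type library 2 was thus the highest there too, by less than for the intestine. In wild-type libraries 1 and 3 the summed intestine share was below that of every transgenic library, while fabp6 was above every transgenic library and the muscle share of wild-type library 1 lay within the transgenic range. The pancreas markers, higher in transgenic livers, ran opposite to cish, pim1, crfb2 and socs3b between the groups. Without transgenic library 2 the log2 fold changes were -1.07 for cish, -0.72 for pim1, -0.71 for crfb2 and -0.79 for socs3b. That fit still holds transgenic library 3, at 0.84% for exocrine pancreas markers beside at most 0.767% in a wild-type library. The part of these other tissues in the values of the 7 genes and socs1 was not tested.

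**Figure D3:**
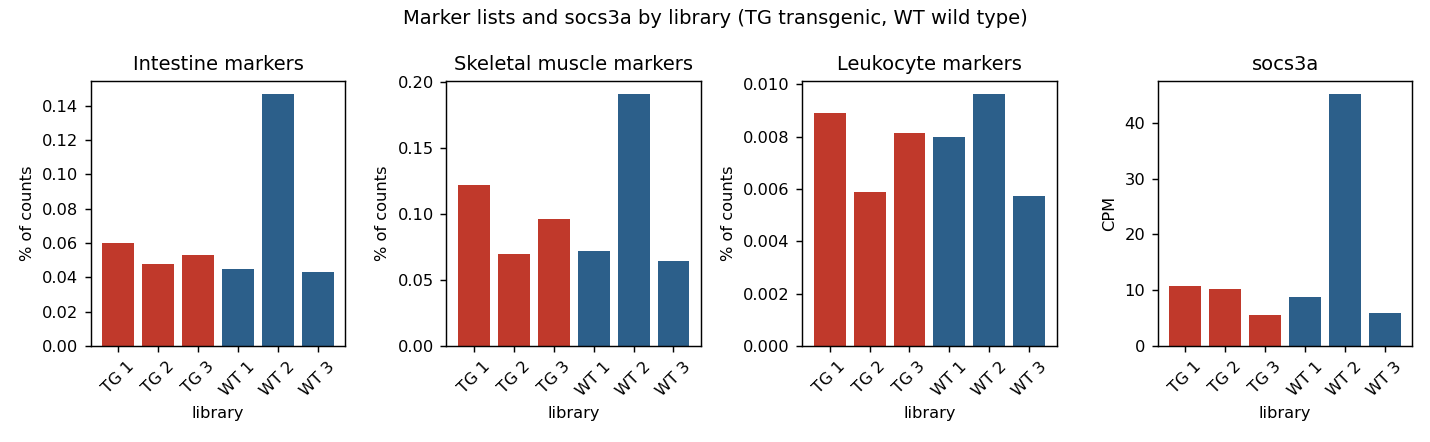
Summed share of counts, in percent, of the intestine, skeletal muscle and leukocyte markers, and CPM of socs3a, in each library, with transgenic libraries in red and wild-type libraries in blue. Wild-type library 2 is the highest bar in all 4 panels, at 0.147% for intestine markers and 45.2 CPM for socs3a.

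The levels of different genes can be set side by side only per length, so the authors' FPKM (counts per kilobase of exon, scaled to the library total) are used here. By the mean of the 6 libraries the order was pim1 at 37.3 FPKM, cish at 35.8, socs3b at 14.5, stat3 at 10.8, socs3a at 7.63, socs2 at 7.10, socs1 at 6.83 and crfb2 at 4.19 FPKM. In wild-type library 2 socs3a and socs1 reached 24.8 and 19.5 FPKM, beside at most 5.77 and 7.05 FPKM in any other library. Their place in an order without that library was not computed. By the mean of the 6 libraries pim1 and cish stood above 93.1 and 92.9% of the genes in the table, and crfb2 above 60.1%. In transgenic livers pim1 (22.3 to 31.0 FPKM) and cish (21.9 to 25.6 FPKM) overlapped, and both stood clear of socs3b (9.33 to 12.0 FPKM). socs3b was not apart from stat3 (9.60 to 10.9 FPKM), nor socs3a (3.03 to 5.77 FPKM) from socs2 (4.14 to 8.49 FPKM), nor socs1 (3.28 to 3.97 FPKM) from crfb2 (2.28 to 3.43 FPKM). In wild-type livers cish (33.7 to 71.1 FPKM) also overlapped with pim1 (42.1 to 55.1 FPKM) and stood clear of socs3b (13.5 to 26.9 FPKM), which in turn stood clear of stat3 (10.1 to 12.9 FPKM). The order of socs3a, socs2, socs1 and crfb2 was not resolved there. The ranges of socs3a (2.94 to 24.8 FPKM) and socs1 (3.34 to 19.5 FPKM) also took in that of stat3 and overlapped with that of socs3b. The gene model of socs2, at 594 bp, is the shortest of the 8, and reads outside that model are not in its count.

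The SOCS3 pair was not at a fixed ratio. socs3b stood above socs3a in FPKM in every library, 1.75-fold, 2.06-fold and 3.97-fold in transgenic libraries 1 to 3 and 2.90-fold, 1.08-fold and 5.13-fold in wild-type libraries 1 to 3. The ratio was near 1 only in wild-type library 2, where socs3a was high. cish stood above stat3 2.44-fold, 2.28-fold and 2.01-fold in FPKM in transgenic libraries 1 to 3, against 2.60-fold, 7.06-fold and 3.86-fold in wild-type libraries 1 to 3.

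**Figure D4:**
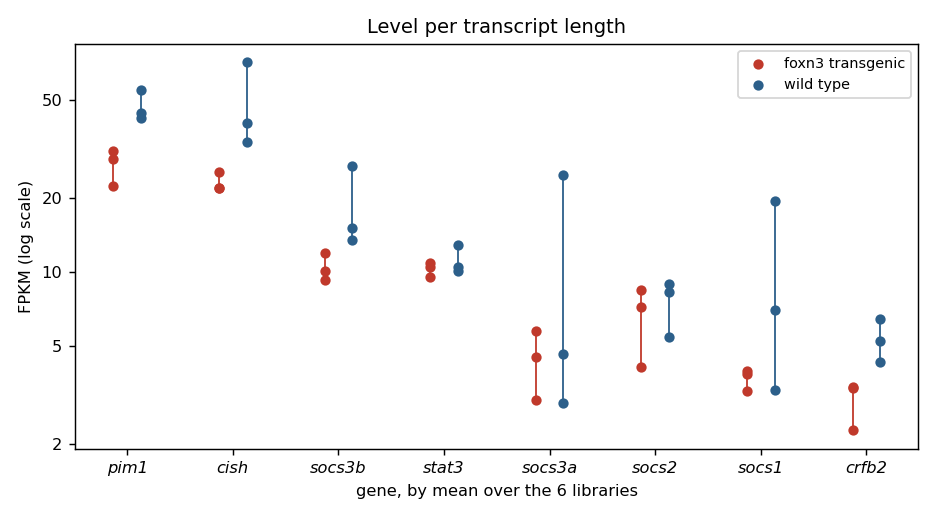
FPKM on a log axis of the 7 genes and socs1, ordered by the mean over 6 libraries, with 1 point per library and a line from the lowest to the highest of a group. Red is foxn3 transgenic and blue wild type. pim1 and cish lead in both groups, and the long blue lines of socs3a and socs1 end in wild-type library 2, at 24.8 and 19.5 FPKM.

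The rest of the pathway was looked at through 5 lists of its known genes, beside a median log2 fold change of 0.00 over all genes tested. No list gene had an adjusted p under 0.05 in edgeR. Of 19 other feedback regulators tested, 13 stood higher and 6 lower in transgenic livers, and the median log2 fold change was 0.05. 2 of them had an unadjusted p under 0.05, both on the higher side, where 0.869% of all genes stood. One was socs9, a zebrafish SOCS family member, with 4.31, 5.64 and 5.19 CPM in transgenic and 3.04, 3.23 and 2.81 CPM in wild-type libraries. Its groups did not overlap, which held with transgenic libraries above for 3.31% of all genes. The log2 fold change of socs9 was 0.73 ± 0.25 (SE; adjusted p = 1 in edgeR's test with Benjamini-Hochberg adjustment). The other was pim2, a kinase gene of the pim family on the same chromosome as pim1, with 13.1, 8.37 and 15.7 CPM in transgenic and 7.68, 4.85 and 8.83 CPM in wild-type libraries. Its groups overlapped, and the estimate was 0.81 ± 0.30 on the log2 scale (SE; adjusted p = 1 in the same test). The fold changes of pim1 and pim2 were opposite in sign. PIM3, the other pim gene of this list, added here beside them, had a log2 fold change of -0.26 ± 0.23 (SE).

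socs8, which the reference tables name cishb and thus the paralog of cish, was singled out after its values were seen. It had 7.85, 27.9 and 11.2 CPM in transgenic and 16.8, 30.5 and 18.9 CPM in wild-type libraries. Transgenic libraries 1 and 3 stood below all wild-type libraries, while transgenic library 2 lay among them. The log2 fold change of -0.50 ± 0.43 (SE) was -1.23 without transgenic library 2. It was -0.19 without transgenic library 1, -0.30 without transgenic library 3 and -0.19 without wild-type library 2, in which socs8 was highest. Transgenic library 2 was also the library with the largest share of exocrine pancreas markers, at 1.2% of counts. The part of pancreas RNA in the socs8 value was not tested.

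**Figure D5:**
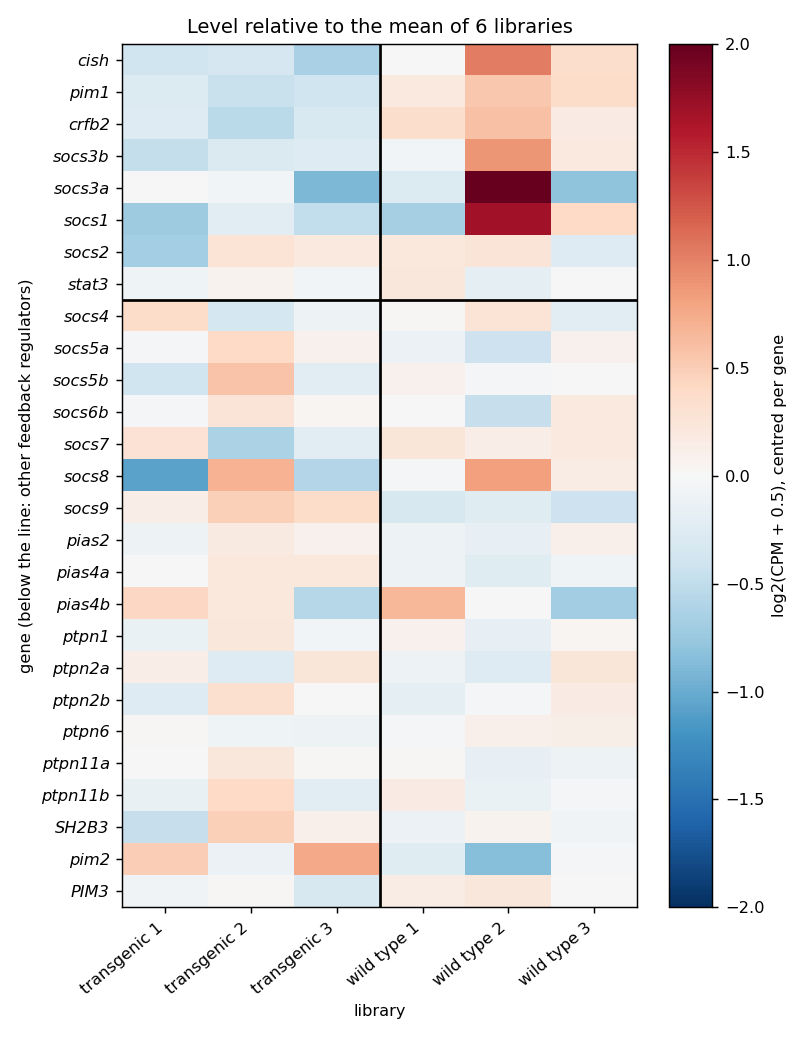
log2(CPM + 0.5) of each gene relative to its mean over the 6 libraries, with the 7 genes and socs1 above the line and 19 other feedback regulators below it, transgenic libraries left and wild-type libraries right. The top 4 rows are blue in all transgenic libraries, and the darkest red cells are socs3a and socs1 in wild-type library 2.

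Among kinases and STATs 7 of 12 genes stood higher and 5 lower, the median log2 fold change was 0.03 and none stood at an unadjusted p under 0.05 in edgeR. The most abundant by FPKM were jak1 (log2 fold change 0.01 ± 0.19, SE), stat5.1 (0.08 ± 0.27) and stat1a (0.31 ± 0.17). stat5.1, the adjoining gene of stat3 at a gap of 21811 bp and a zebrafish counterpart of the STAT5 genes, had 67.0, 88.8 and 66.1 CPM in transgenic and 89.1, 42.6 and 78.4 CPM in wild-type libraries. Its lowest value was that of wild-type library 2, in which cish was at its highest. stat1a, the interferon-responsive STAT, had 110, 99.7 and 104 CPM in transgenic and 77.2, 93.9 and 82.2 CPM in wild-type libraries. Its groups did not overlap, with transgenic libraries above, which held for 3.31% of all genes tested. The same was true of stat6, another gene of this list, singled out after its values were seen.

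Of 32 receptor genes tested, 13 stood higher and 19 lower, at a median log2 fold change of -0.07. The one at an unadjusted p under 0.05 in edgeR was il2rgb, on the higher side, where 0.869% of all genes stood. It encodes a common gamma chain of interleukin receptors. Its levels were 1.6, 1.69 and 2.08 CPM in transgenic and 0.982, 0.846 and 0.669 CPM in wild-type libraries. The groups did not overlap, which held with transgenic libraries above for 3.31% of all genes. The fold change of il2rgb was 1.07 ± 0.35 on the log2 scale (SE; adjusted p = 1 in edgeR's test), and it rested on 18 to 24 counts in the transgenic and 5 to 11 counts in the wild-type libraries. 5 of the 32 receptor genes stood at least 2-fold higher in wild-type library 2 than in the mean of wild-type libraries 1 and 3. Over all genes tested the share was 6.19%. Among them was csf3r, the receptor of a neutrophil growth factor, singled out after its values were seen, with 3.46, 2.82 and 3.63 CPM in transgenic and 2.95, 6.15 and 2.28 CPM in wild-type libraries. The growth hormone receptor gene ghra, singled out because its signal is known to induce CISH in mammals, had 163, 204 and 142 CPM in transgenic and 239, 179 and 145 CPM in wild-type libraries, and the groups overlapped. The other growth hormone receptor gene, ghrb, had 65.9, 153 and 57.2 CPM in transgenic and 109, 116 and 78.4 CPM in wild-type libraries. Its groups overlapped through transgenic library 2, and its log2 fold change was -0.14 ± 0.36 (SE).

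Ligand transcripts were scarce where they could be looked up. Of 31 ligand names 13 stand on the authors' list of genes under 10 counts, and 10 matched genes of the table. The names il6, lif, osm, csf3a, csf3b, ifng1-1 and ifng1-2 had no match, so no level is given under them. Whether any of them is another name of a gene on the authors' list was not checked. Of the matched genes 5 were tested, of which 2 stood higher and 3 lower at a median log2 fold change of -0.12. il15 was the most abundant by FPKM, with 7.77, 6.87 and 5.53 CPM in transgenic and 6.61, 8.08 and 8.16 CPM in wild-type libraries and a log2 fold change of -0.18 ± 0.23 (SE). thpo and cntf came next, at 2.99 and 1.69 FPKM over the 6 libraries, with log2 fold changes of 0.37 ± 0.42 and 0.25 ± 0.31 (SE). The growth hormone gene gh1, made in the pituitary and singled out as the ligand of ghra, reached at most 0.844 CPM.

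Liver transcripts known to follow STAT3 or STAT5, mostly from mammals, were split evenly, with 11 of 22 higher and 11 lower. The list was not sorted by the direction in which they follow. Its median log2 fold change was -0.03, and none stood at an unadjusted p under 0.05 in edgeR. The fibrinogen chain genes, acute phase genes of mammals, led by level, with log2 fold changes of 0.12 ± 0.23 for fgg, 0.27 ± 0.22 for fgb and 0.24 ± 0.23 for fga (SE). Wild-type library 2, which held the top values of socs3a and socs3b, was the lowest library for fgb and fga, at 2170 and 1880 CPM, and for the hepcidin gene hamp1, at 68.0 CPM. For fgg wild-type library 1 was the lowest, at 2860 CPM beside 2910 CPM in wild-type library 2. Wild-type library 2 was the highest for 6 of the 22 genes, beside 17.2% of all genes tested. One of the 6 was cebpd, an acute phase transcription factor gene, which had 132, 220 and 104 CPM in transgenic and 170, 242 and 159 CPM in wild-type libraries. hamp1 and cebpd were singled out after their values were seen.

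The genes most like 5 of the feedback genes in pattern were found by the root mean square difference of centred log2 CPM over the 6 libraries, among 11658 genes of at least 5 CPM on average (11657 for socs1). This is a description of 6 values per gene. For cish the nearest was reep3l at a difference of 0.19, with 10.1, 11.4 and 9.43 CPM in transgenic and 14.0, 25.1 and 12.8 CPM in wild-type libraries, then NKPD1 at 0.25 and ch211-195b13.1 at 0.27, beside a median of 0.63 over the genes searched. For socs3b they were aqp7 at 0.12, reep3l at 0.15 and ugp2b at 0.17 (median 0.53), so reep3l stood on both lists. For pim1 they were OCEL1 at 0.09, smarcd3a at 0.14 and wu:fj34h05 at 0.14 (median 0.47). For socs3a they were mep1a.1 at 0.18, slc34a2a at 0.22 and zgc:154142 at 0.27 (median 1.04). mep1a.1 had 5.32, 5.08 and 2.94 CPM in transgenic and 5.89, 29.9 and 2.94 CPM in wild-type libraries, and slc34a2a had 13.2, 16.7 and 7.35 CPM in transgenic and 15.6, 81.3 and 10.3 CPM in wild-type libraries. For socs1 they were dkey-10o6.2 at 0.33, zgc:63663 at 0.36 and itpk1 at 0.37 (median 0.91).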

How the data were processed

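Per the labels, stranded total RNA libraries gave single-end reads of 50 bp, which were aligned with Novoalign to Zv9, per the submitters' processing notes. The authors deposited whole-number counts of alignments overlapping a gene by at least 1 bp and FPKM made from them, per the file headers. FPKM recomputed from counts and lengths differed by at most 0.159%. The deposited log2 ratios are DESeq2's, and the deposited scores, 10 times the negative log10 of its adjusted p-value, were turned back into p-values. The gene length in base pairs is also the authors'. The sources used here do not say whether counting used strand. No other gene of the table overlaps the 8 genes.

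Counts were tested in R 4.3.3 with edgeR 4.0.16 (TMM, filterByExpr, glmQLFTest, no covariate, Benjamini-Hochberg over all genes tested, threshold 0.05). Standard errors are the log2 fold change over the square root of F. Alternatives were RLE factors, library totals alone, no filter, DESeq2 1.42.0, limma-voom (limma 3.58.1), a replicate block and each library left out. No library repeats another: within groups the chi-square of any pair was 17.5 to 30.7 per gene.

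The 7 genes and the 5 pathway and 8 marker lists were chosen with earlier results of these data known. Named list genes are those at an unadjusted p under 0.05, otherwise the 3 of highest FPKM, with others said to be singled out. Of 237 list entries 160 matched a symbol of the table, 25 an ID in the table of names and 4 a RefSeq synonym. Of the lists not given in the report, median log2 fold changes were 0.05 for 12 endothelium and 0.17 for 7 erythrocyte genes.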

Additional observations from a re-analysis of the deposited data

How the results depend on the processing

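Over the 12 alternatives each, the 7 genes kept their direction and stayed uncalled in 81 of 84 results. The 3 that turned were socs2 (0.15 without transgenic library 1), socs3a (0.27 without wild-type library 2) and stat3 (0.06 without wild-type library 1). Leaving out single libraries gave -1.20 to -0.65 for cish, -0.94 to -0.42 for socs3b, -1.61 to 0.27 for socs3a, -0.32 to 0.15 for socs2, -0.15 to 0.06 for stat3 and -1.76 to -0.44 for socs1; the adjusted p was 1 in each. Without wild-type library 2 the values were 0.27 for socs3a, -0.44 for socs1, -0.42 for socs3b and -0.65 for cish, and of these 4 only socs3a changed sign. Genes called over all genes were 0 lower throughout and 0 higher, except 1 with DESeq2, 1 under the replicate block and 0 to 1 without single libraries, and the gene was foxn3 (2.73 with DESeq2, 2.81 under the block). The block is no pairing in the labels. Same-numbered libraries had deviations correlated at 0.344, -0.107 and 0.156, beside -0.327 to 0.194 for the other pairs. So few values cannot decide whether the numbers pair the libraries. The block changed no call of the 7 genes. The other feedback regulators had a median of 0.05, with -0.09 to 0.17 without single libraries. With library totals alone jak1 turned to -0.05 and crfb1 to -0.03, and the median of all genes to -0.05. Without single libraries jak1 ranged from -0.08 to 0.09, stat5.1 from -0.18 to 0.29, fgg from -0.02 to 0.31, crfb1 from -0.08 to 0.20 and pim2 from 0.59 to 1.02. Their causes were not tested. socs2 held 25 to 65 counts a library, and the part of depth in the width of its interval was not tested.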
